A study of Homo sapiens with 54 samples.

Results

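The comparison described here is the knockout of *TRA2A* in LN229, a human glioma cell line, set against control knockout in the same cells. It comprised 6 of the 54 RNA-seq libraries of the series, 3 from LN229 Luc *TRA2A* KO and 3 from LN229 Luc Control KO, and its libraries were taken by these labels. All 6 libraries came from cells that overexpressed luciferase (Luc), which stands as the control for cells that overexpressed *TRA2B* (TRA2B-OE). RNA was taken on day 7 after lentiviral delivery of Cas9 and a guide, which was directed to *TRA2A* in the knockout and to a control locus in the Control KO. The 3 further groups of LN229 were Luc *TRA2B* KO, TRA2B-OE Control KO and TRA2B-OE *TRA2A* KO, with 3 libraries each, and LN319, a second glioma line, was used for comparison. A knockout culture is a pool of cells with different edits, in which the level of an mRNA need not follow the loss of its protein. In bulk RNA of such a pool, fewer cells that make a transcript and less transcript per cell cannot be told apart. The labels number the replicates and do not say whether they came from separate cultures, so p-values measure the spread between these libraries, which may be technical.

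*TRA2A* and *TRA2B* encode a pair of serine/arginine-rich RNA-binding proteins, related to Transformer-2 of the fly, that bind purine-rich sequences in exons and promote the inclusion of those exons in mRNA. SR proteins act by recruiting the splicing machinery, and kinases of the SRPK and CLK families phosphorylate them. Many genes of splicing factors carry poison exons, whose inclusion sends the transcript to nonsense-mediated decay. The abundance of a gene was measured here and not the choice of its exons.

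Guides listed by the study are shown because their target sites define the perturbation; which of them was used for these libraries is not given in the sources used here. Each is printed with its target from 5′ to 3′ in lower case and the adjacent PAM, the bases that Cas9 needs beside its target, in capitals.
TRA2A sg4: tcagtttgtacacaacagagAGG
TRA2A sg5: tctcgatatggaccattgagTGG
TRA2A sg6: tggtttatgatcagcgaactGGG
ROSA26 sg1: gagtcgcttctcgattatgggCGG
Each of these had 1 match in the hg38 genome. The targets of the *TRA2A* guides lie on the minus strand at chr7:23513023-23513042 (sg4), chr7:23512982-23513001 (sg5) and chr7:23512951-23512970 (sg6). All of these cut sites fall in the coding sequence in exon 4 of the 8 exons of the canonical *TRA2A* transcript (ENSG00000164548.12, chr7:23504780-23532041, minus strand). The most similar site with a PAM in *TRA2B* (ENSG00000136527.19, chr3:185914558-185938103, minus strand) differed from sg4 at 9 positions, from sg5 at 8 and from sg6 at 6. The control guide shown matches chr3:9396264-9396284 on the minus strand.

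The deposited values are TPM, each transcript's share of a library scaled to a fixed total, and they keep no record of depth. Of 55906 gene rows, 18490 had at least 1 TPM in at least 4 of the 15 LN229 libraries and were tested. Across these genes the *TRA2A* KO libraries correlated with each other at r = 0.960 to 0.963, and the share of mitochondrially encoded genes was 6.11% to 8.31% in the 6 libraries. Luc Control KO replicate 1 stood apart. It correlated less with the other Luc Control KO libraries (r = 0.940 to 0.949) than with the *TRA2B* KO libraries (r = 0.957 to 0.960). Its *TRA2A* level of 105 TPM was near the other controls at 111 and 111 TPM and not near the *TRA2B* KO libraries at 167 to 171 TPM. Its *TRA2B* level of 202 TPM lay below the other controls at 232 and 234 TPM and above the *TRA2B* KO libraries at 143 to 150 TPM. TRA2B-OE Control KO replicate 1 also stood apart from its group, with r = 0.943 to 0.947 where the other two had r = 0.965. The deviations of both replicates from the rest of their groups had a correlation of 0.212 across the 18490 genes. In some gene lists described below they were closer. The median deviations in Luc and TRA2B-OE were -0.70 and -0.68 for S phase genes and -0.77 and -0.46 for G2/M genes. They were 0.91 and 0.64 for interferon-stimulated genes, but -0.20 and 0.09 for NRF2 targets. Both libraries were kept, and the counts of the comparison with Luc Control KO were also made without its replicate 1. Among markers of glioma cells, vimentin (*VIM*) was at 2594 to 3341 TPM and nestin (*NES*) at 254 to 286 TPM. *GFAP*, an astrocyte filament gene, was at 2.17 to 3.62 TPM. Of the 14 glioma and mesenchymal markers 4 had a mean under 1 TPM. Of 14 lung epithelial markers 9 had a mean under 1 TPM, while the keratin *KRT18* was at 84.6 to 148 TPM. Of the 8 blood cell markers 6 had a mean under 1 TPM, as had all 6 endothelial markers.

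The targeted gene fell in the knockout. *TRA2A* was at 105, 111 and 111 TPM in Luc Control KO replicates 1 to 3 and at 74.2, 67.1 and 65.0 TPM in *TRA2A* KO. Every knockout library lay below every control library, and the mean remaining was 62.9% of control (log2 fold change -0.65, standard error 0.0685, limma adjusted p = 0.00314). Its paralog *TRA2B* was at 202, 232 and 234 TPM in the controls and at 243, 256 and 254 TPM in *TRA2A* KO. The knockout libraries lay above the controls, but the log2 fold change of 0.19 (standard error 0.115, limma adjusted p = 0.354) did not pass the test. In an exact permutation test of 1 gene, 3 libraries against 3 cannot give a two-sided p under 0.1. Reads that match both paralogs are assigned by estimation in kallisto, the quantifier that the authors used.

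**Figure D1:**
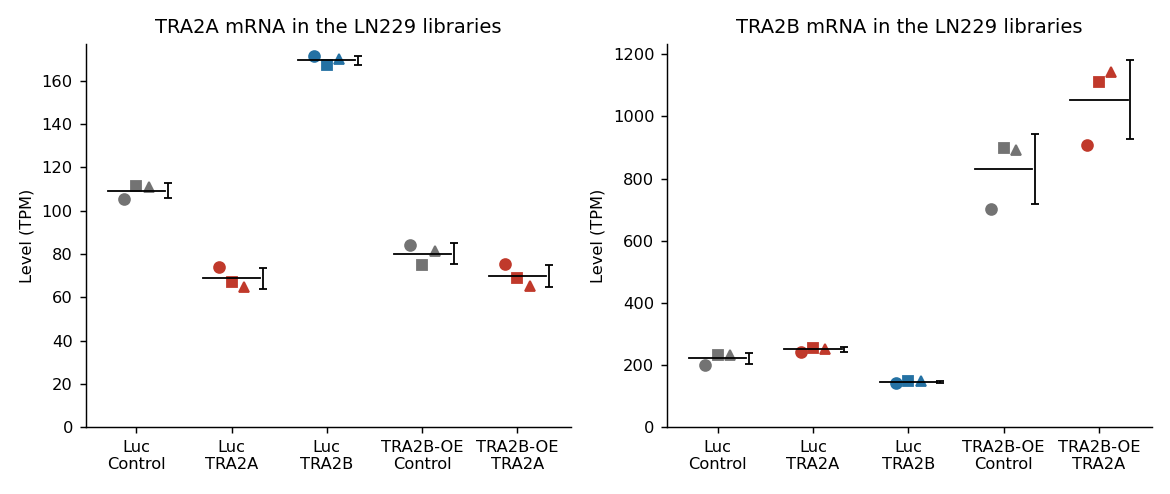
Levels of *TRA2A* (left) and *TRA2B* (right) mRNA in TPM as deposited, for the 15 LN229 libraries in their 5 groups. Circles, squares and triangles are replicates 1, 2 and 3, horizontal lines are means and bars are SD (n = 3); *TRA2A* in Luc *TRA2A* KO lies at 65.0 to 74.2 TPM, below the Luc controls at 105 to 111 TPM.

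Few genes changed strongly. At a limma adjusted p under 0.05, 681 genes (3.68% of those tested) were called, 343 higher (1.86%) and 338 lower (1.83%), and 3996 (21.6%) had an unadjusted p under 0.05. Of the 681, 127 (0.687%) also changed more than 2-fold and are termed differentially expressed genes (DEGs), 55 up (0.297%) and 72 down (0.389%). The libraries of the groups did not overlap in any of the 127 DEGs, nor in 24.8% of all genes tested. Protein-coding genes made up 36 of the DEGs that rose and 51 of those that fell, with median control levels of 6.50 and 20 TPM, and 78 DEGs had a mean of at least 5 TPM in either group. The number of calls rested on single libraries. Without Luc Control KO replicate 1, 24 DEGs were called (11 up, 13 down), 20 of them among the 127. Without *TRA2A* KO replicate 3 there were 5, and without *TRA2A* KO replicate 2 there were 39. With only these 2 groups in the fit, 1 gene was called, the pseudogene *FGF7P4*. Every one of the 127 DEGs kept its sign under each of these settings. Where the groups do not overlap, leaving out 1 library cannot reverse a sign. Fitting only these 2 groups does not change the fold changes, so the kept signs are no separate support. Of the 681 genes, 33 kept an adjusted p under 0.05 whichever of the 6 libraries was left out, and 7 of those were DEGs.

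**Figure D2:**
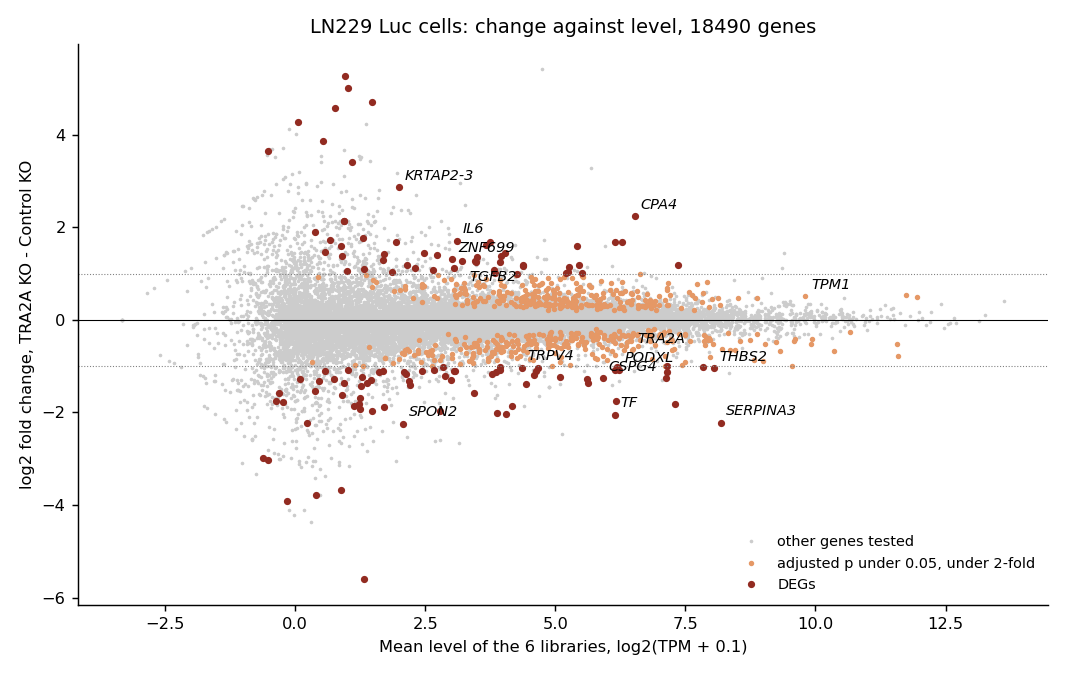
Change of each of the 18490 genes in LN229 Luc *TRA2A* KO (vertical axis, log2 fold change) against its mean level in the 6 libraries (horizontal axis, log2(TPM + 0.1)). Dark points are the 127 DEGs, orange points the other genes with an adjusted p under 0.05 and grey points the rest; dotted lines mark 2-fold, and *TRA2A* itself lies at -0.65.

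Among protein-coding genes of at least 5 TPM, the 15 with the smallest p that rose were *FGF2*, *TGFB2*, *FAM98A*, *TPM1*, *DLC1*, *VCL*, *HERC4*, *ZNF699*, *AHNAK*, *ALDH1A3*, *NABP1*, *GABRE*, *PTPRK*, *ATF3* and *TIPARP*. Their log2 fold changes ranged from 0.47 to 1.32 and their limma adjusted p from 0.0032 to 0.00922. These genes were chosen by their p, so their values describe the comparison and do not test it further. Of the 15, 12 stayed past the threshold whichever library was left out, and *PTPRK*, *ATF3* and *TIPARP* lost it without *TRA2A* KO replicate 3.

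Among them were genes of secreted growth factors. *FGF2*, fibroblast growth factor 2, was at 13.2, 12.9 and 13.8 TPM in Control KO and at 20.2, 19.2 and 20.9 TPM in *TRA2A* KO (log2 fold change 0.61, standard error 0.0677, limma adjusted p = 0.0032). *TGFB2*, transforming growth factor beta 2, was at 6.91, 6.82 and 7.88 TPM and at 11.2, 11.4 and 12 TPM (log2 fold change 0.69, standard error 0.077). In both genes the replicates lay close together and the groups were well apart, and Luc Control KO replicate 1 did not stand out. Another set encodes proteins of the actin cytoskeleton and cell adhesion. *TPM1*, a tropomyosin that winds along actin filaments, rose to 141% of control, from 745 ± 67.7 to 1048 ± 45.4 TPM (SD, n = 3). Vinculin (*VCL*), which links adhesions to actin, was at 31.7, 34.1 and 37.2 TPM in controls and at 45.6, 49.1 and 50.6 TPM in the knockout. *DLC1*, a GTPase-activating protein, was at 24.6, 23.2 and 27.5 TPM and at 36.8, 37.1 and 39.1 TPM. These rose less than 2-fold, with log2 fold changes of 0.51 for *TPM1* and *VCL* and 0.60 for *DLC1*.

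Regulators of transcription and signaling were also among the 15. The zinc finger gene *ZNF699* was the 1 DEG of this set, at 3.51, 4.96 and 5.43 TPM in Control KO and at 11.5, 11.7 and 11.0 TPM in *TRA2A* KO (log2 fold change 1.32, standard error 0.179, limma adjusted p = 0.0064). *ATF3*, a stress-induced transcription factor, was at 34.7, 40.1 and 38.1 TPM and at 59.6, 61.0 and 66.7 TPM. *NABP1*, which encodes a single-stranded DNA-binding protein, rose from 20.1 ± 0.892 to 37.7 ± 7.21 TPM (SD, n = 3), the widest spread in the knockout libraries being between 31.5 and 45.6 TPM. *HERC4*, a ubiquitin ligase, *AHNAK*, a large scaffold protein, and *PTPRK*, a receptor tyrosine phosphatase, rose to 152%, 153% and 171% of control. *ALDH1A3*, which makes retinoic acid from retinaldehyde, rose from 370 to 425 TPM in controls to 529 to 555 TPM in the knockout.

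The 15 genes with the smallest p that fell were *CITED4*, *TRPV4*, *FOXD2*, *GRM8*, *PODXL*, *TSPAN13*, *VWA1*, *COL9A3*, *IGFBP2*, *VMAC*, *LRAT*, *CSPG4*, *NR4A2*, *CITED1* and *TRAF1*. Their log2 fold changes ranged from -1.26 to -0.46 and their limma adjusted p from 0.0018 to 0.00922. Of the 15, 11 stayed past the threshold whichever library was left out, and *CSPG4*, *NR4A2*, *CITED1* and *TRAF1* lost it without *TRA2A* KO replicate 3.

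*CITED4*, which encodes a transactivator that binds the coactivators CBP and p300, had the smallest p in the whole comparison. It was at 57.3, 44.8 and 42.4 TPM in Control KO and at 20.2, 23.1 and 17.0 TPM in *TRA2A* KO, or 41.7% of the control mean (log2 fold change -1.24, standard error 0.117, limma adjusted p = 0.0018). Its relative *CITED1* fell from 24.7, 18.5 and 16.7 TPM to 11.0, 8.53 and 7.34 TPM. The knockout libraries of both genes lay below all controls. Genes of membrane proteins fell as well. The calcium-permeable channel *TRPV4* was at 28.9, 27.0 and 26.9 TPM and at 14.3, 15.2 and 10.9 TPM (log2 fold change -1.03, standard error 0.117). The sialomucin podocalyxin (*PODXL*) fell from 119, 88.4 and 98.8 TPM to 55.0, 47.7 and 40.6 TPM. The metabotropic glutamate receptor *GRM8* and the tetraspanin *TSPAN13* fell less, to log2 fold changes of -0.69 and -0.46.

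Others of the 15 fell as well. *COL9A3*, a chain of type IX collagen, was at 763, 634 and 598 TPM in Control KO and at 399, 379 and 290 TPM in *TRA2A* KO. *IGFBP2*, which binds insulin-like growth factors, was at 78.6, 77.7 and 71.5 TPM and at 42.7, 52.4 and 37.1 TPM. *CSPG4*, the NG2 proteoglycan of glial precursors and glioma cells, was at 124, 68.7 and 67.2 TPM and at 35.5, 35.7 and 31.7 TPM (log2 fold change -1.26, standard error 0.182, limma adjusted p = 0.00728). The first control value of *CSPG4* lay at the level of the *TRA2B* KO libraries (118 to 127 TPM), and without it the log2 fold change was -0.97 (limma adjusted p = 0.00249). The nuclear receptor *NR4A2* also had its highest control value in replicate 1, at 44.1, 29.0 and 30.5 TPM in controls and at 18.6, 16.2 and 14.3 TPM in the knockout.

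**Figure D3:**
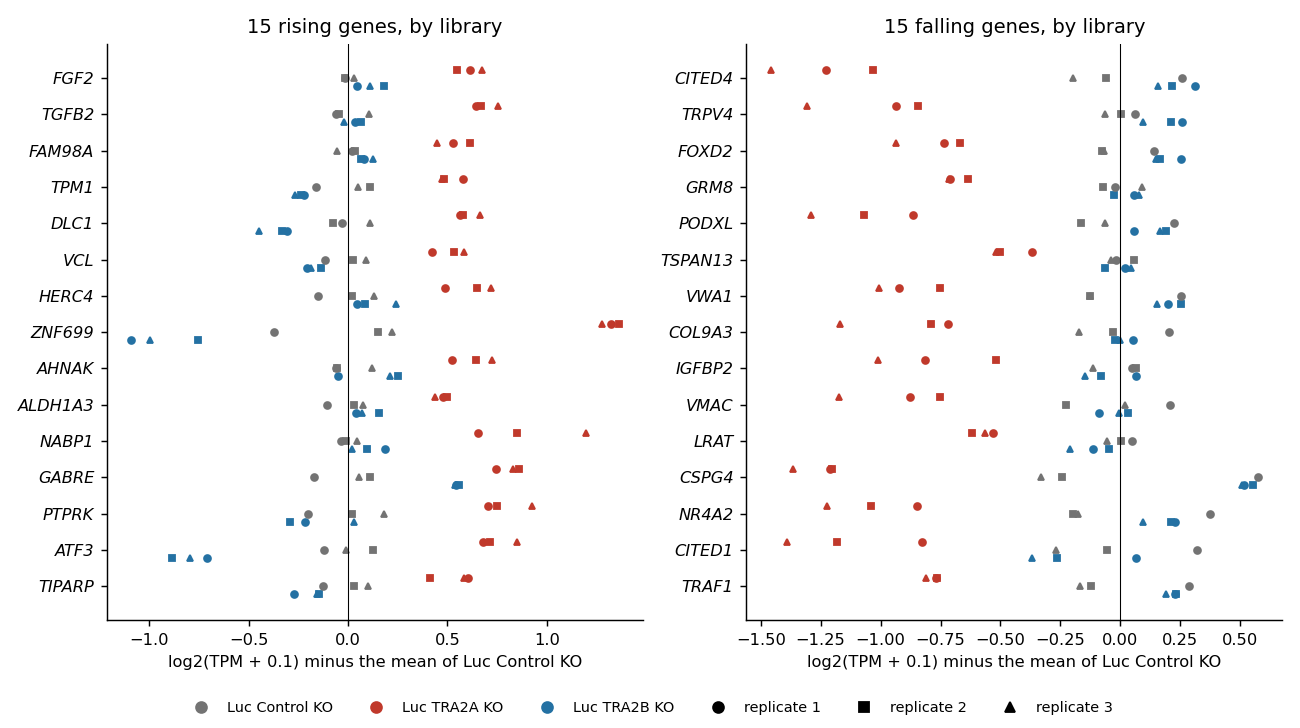
The 15 rising (left) and 15 falling (right) protein-coding genes with the smallest p, by library. The horizontal axis is log2(TPM + 0.1) of the scaled values minus the mean of Luc Control KO; symbols are replicates, and in each gene the red *TRA2A* KO libraries lie apart from the grey controls.

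The 10 DEGs of largest rise and the 10 of largest fall were mostly genes of low level, and 2 and 3 of them were protein-coding. *FAM27B*, *RP11-541M12.3*, *RN7SKP11* and 1 further gene were listed at 0 in all controls and at 0.649 to 6.08 TPM in *TRA2A* KO. *FGF7P4*, at 3.55 to 5.76 TPM in controls, and *RN7SL836P*, at 0.676 to 2.68 TPM, were listed at 0 in all *TRA2A* KO libraries. Such small RNAs and pseudogenes share sequence with other copies, and their reads can be split among them. No fold is given for them. Of the remaining members, *RNU6-817P*, *RP11-1094M14.11*, *AC009238.8* and *CTD-2532K18.2* rose and *RN7SL191P*, *CTD-2568P8.1*, *RP5-1039K5.18* and *RP11-141M1.4* fell, all with a mean under 6 TPM.

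The protein-coding genes at these extremes moved furthest where Luc Control KO replicate 1 was itself extreme. *SERPINA3*, a serine protease inhibitor of reactive astrocytes and the liver, was at 913, 296 and 263 TPM in Control KO and at 112, 85.3 and 71.0 TPM in *TRA2A* KO (log2 fold change -2.22, standard error 0.412, limma adjusted p = 0.0167). *TF*, which encodes the iron carrier transferrin, was at 196, 79.8 and 73.5 TPM and at 28.5, 30.1 and 18.3 TPM (log2 fold change -2.05, standard error 0.323, limma adjusted p = 0.00922). *SPON2*, a secreted matrix protein, was at 12.7, 3.8 and 4.54 TPM and at 1.56, 1.12 and 0.954 TPM. In these 3 genes the first control value lay within or above the range of the *TRA2B* KO libraries, and the other controls still lay above every knockout library. Without that control, the log2 fold changes were -1.65 for *SERPINA3*, -1.60 for *TF* and -1.71 for *SPON2*, and the limma adjusted p of *SPON2* was 0.0529. In the other direction, *CPA4*, a carboxypeptidase, was at 9.79, 56.9 and 52.3 TPM and at 121, 148 and 167 TPM (log2 fold change 2.24, standard error 0.531, limma adjusted p = 0.0393). Without Luc Control KO replicate 1 the rise of *CPA4* was 1.41 with a limma adjusted p of 0.0529. *KRTAP2-3*, a keratin-associated protein gene, was at 0.289, 1.39 and 1.29 TPM in controls and at 4.80, 8.33 and 7.25 TPM in the knockout, and its limma adjusted p went from 0.0221 to 0.0704 without that library.

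Few genes of the splicing machinery to which *TRA2A* belongs passed the test of abundance. Of 11 SR proteins tested, 0 passed in limma, where 1.86% of all genes rose and 1.83% fell. Of the 11, 2 had an unadjusted p under 0.05 in limma, where 21.6% of all genes had. The median log2 fold change of these SR proteins was 0.0491 beside 0.00361 over all genes. *SRSF1* was at 267, 303 and 304 TPM in Control KO and at 315, 332 and 330 TPM in *TRA2A* KO, with a limma adjusted p of 0.208. Of the 8 SR protein kinases 0 passed in limma and 4 had an unadjusted p under 0.05 (1 higher, 3 lower), with a median of -0.03. *SRPK3*, one of them, had a log2 fold change of -0.97, and -0.75 without Luc Control KO replicate 1. Its limma adjusted p was 0.0132 with the replicate number as a block and 0.184 without that library. Among 33 hnRNPs and other splicing regulators 2 rose and 0 fell (6.06%). These were *MBNL2*, a muscleblind-like splicing regulator (24.3, 25.6 and 27.7 TPM to 37.1, 33.7 and 35.3 TPM, log2 fold change 0.47, limma adjusted p = 0.0216), and *HNRNPA3* (log2 fold change 0.21, limma adjusted p = 0.0254). Of 15 factors of nonsense-mediated decay only *MAGOHB*, of the exon junction complex, passed (0.50, limma adjusted p = 0.0461). Host genes of snoRNAs, whose spliced transcripts are targets of that decay, had positive values in 13 of 13 with a median of 0.34, and 1 passed. That gene was *SNHG6*, at 288, 313 and 318 TPM in controls and at 401, 448 and 421 TPM in the knockout (0.48, limma adjusted p = 0.0287). Without Luc Control KO replicate 1, 0 genes of these 5 lists passed and the median of the snoRNA hosts was 0.19.

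The genes that the study assayed by RT-PCR for exon usage showed no change in abundance that passed the test. *CHEK1*, the checkpoint kinase, was at 20.8, 40.6 and 33.5 TPM in Control KO and at 34.7, 40.9 and 44.6 TPM in *TRA2A* KO (limma adjusted p = 0.32). The centrosomal genes *CEP192*, *OFD1* and *CNTRL* each had a log2 fold change of -0.22, with limma adjusted p of 0.346, 0.352 and 0.249. Of the 24 genes in the list of such targets and centrosome components, 0 passed in limma. An unadjusted p under 0.05 was found for 2 of them, and for 21.6% of all genes.

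The cell-cycle and interferon lists varied more between the controls than with the knockout. All 43 S phase genes had positive log2 fold changes (median 0.27), as had 44 of 54 G2/M genes (median 0.14). In limma 0 passed in either list, and 2 and 0 genes had an unadjusted p under 0.05, where 21.6% of all genes had. The median S phase gene of Luc Control KO replicate 1 lay 0.70 below the other controls on the log2 scale, and the median G2/M gene lay 0.77 below. Without that library the medians of the comparison were 0.06 for S phase and -0.11 for G2/M. *RANGAP1* shows the pattern, at 101, 182 and 188 TPM in controls and at 192, 219 and 210 TPM in *TRA2A* KO, beside 105 to 113 TPM in *TRA2B* KO. Interferon-stimulated genes had negative values in 28 of 31, with a median of -0.51, and 0 passed in limma, while 11 had an unadjusted p under 0.05. In them Luc Control KO replicate 1 lay 0.91 above the other controls, and without it the median was -0.38. *IFITM3*, an antiviral membrane protein, was at 456, 263 and 219 TPM in controls and at 205, 176 and 169 TPM in the knockout (limma adjusted p = 0.109). For both kinds of genes, the *TRA2A* KO libraries lay nearer to control replicates 2 and 3 than to replicate 1. The part of that library in these lists is shown by the values without it, and its origin was not tested.

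**Figure D4:**
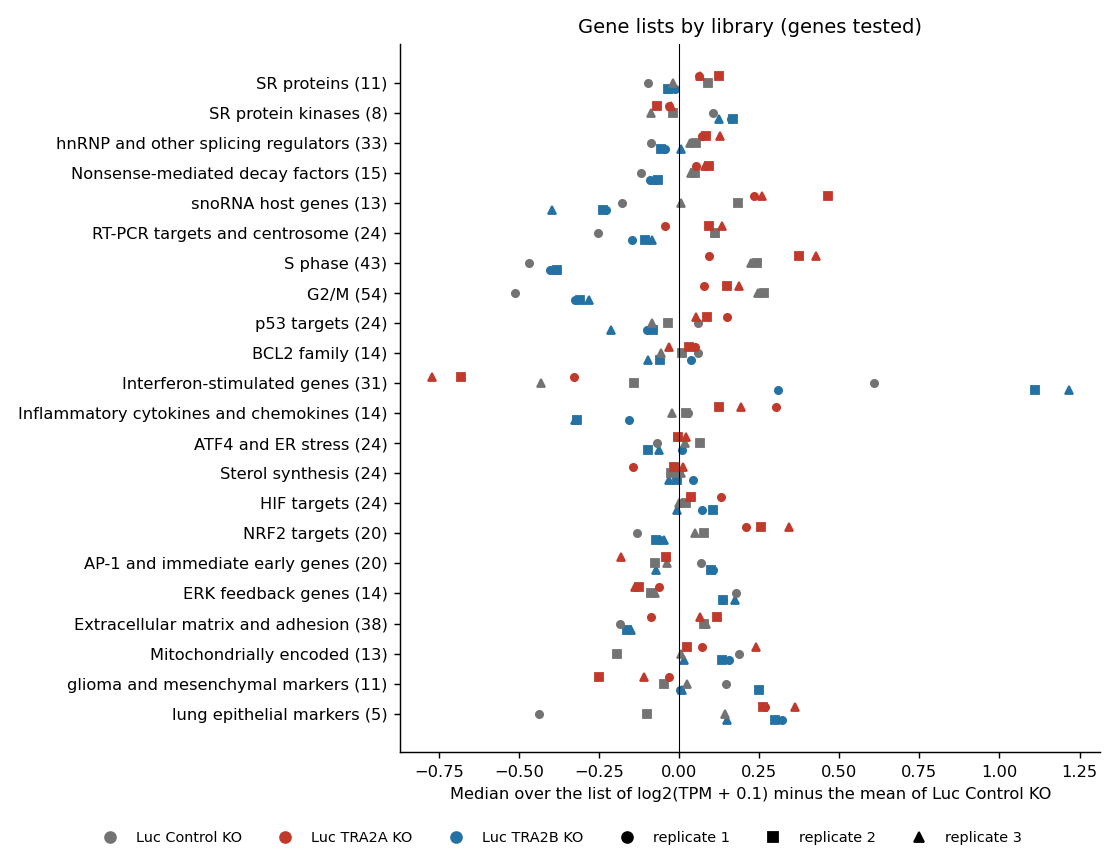
Median over the tested genes of each list (number in brackets) of log2(TPM + 0.1) minus the mean of Luc Control KO, by library. Grey, red and blue are Luc Control KO, *TRA2A* KO and *TRA2B* KO and symbols are replicates; in the S phase list control replicate 1 lies at -0.47 and the other controls at 0.24 and 0.22.

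Stress and survival lists had few calls. Calls made up 4.17% of p53 targets, 7.14% of the BCL2 family and 8.33% of ATF4 and ER stress genes, beside 3.68% of all genes. The share of the p53 targets is near that of all genes. Of 24 p53 targets tested, *GADD45A*, a growth arrest and DNA damage gene, rose, from 155, 201 and 200 TPM in Control KO to 286, 272 and 255 TPM in *TRA2A* KO (log2 fold change 0.57, standard error 0.11, limma adjusted p = 0.0184). The other 23 did not pass. Of 14 genes of the BCL2 family, *BCL2L1*, which encodes the anti-apoptotic BCL-XL, rose from 60, 75.6 and 76.8 TPM to 100, 103 and 109 TPM (0.58, standard error 0.1, limma adjusted p = 0.0113). Without Luc Control KO replicate 1, *BCL2L1* still passed (limma adjusted p = 0.0321) and *GADD45A* had a limma adjusted p of 0.0518. Of 24 ATF4 and ER stress genes 1 rose, which was *ATF3*, and 1 fell, which was *PDIA4*, an ER protein disulfide isomerase (82.3, 67.6 and 65.9 TPM to 49.0, 49.7 and 42.7 TPM). At an unadjusted p under 0.05 in limma, 6 of the 24 ATF4 and ER stress genes were higher and 7 lower. At that level 6 p53 targets were higher and 2 lower, and 2 BCL2 family genes were higher and 3 lower. Of 24 sterol synthesis genes, 24 HIF targets and 13 mitochondrially encoded genes, 0 passed in limma, and 3, 5 and 1 had an unadjusted p under 0.05. Of all genes, 21.6% had such a p.

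Among 20 targets of NRF2, the regulator of antioxidant genes, 5 rose and 0 fell (25% beside 1.86% of all genes that rose), with a list median of 0.24. These were *ABCC3*, an export pump (39.7, 69.4 and 63.7 TPM to 88.8, 103 and 103 TPM), *TXNRD1*, thioredoxin reductase (125, 198 and 214 TPM to 268, 291 and 357 TPM), *HMOX1*, heme oxygenase, *FTH1*, ferritin heavy chain, and *AKR1B10*, an aldo-keto reductase. The last was outside the rule for naming genes and is given to complete the count, at 1.39, 2.88 and 2.79 TPM and at 5.24, 4.10 and 4.70 TPM. *HMOX1* was at 23.5, 23.4 and 21.7 TPM in controls and at 32.2, 29.6 and 33.7 TPM in the knockout (log2 fold change 0.49, standard error 0.115, limma adjusted p = 0.0372). In each of these the knockout libraries lay above all controls. Without Luc Control KO replicate 1, 0 of the list passed, with a median of 0.19 and a limma adjusted p of 0.0947 for *HMOX1*. In TRA2B-OE cells, which have their own controls, 5 of the list rose with *TRA2A* KO and 0 fell, with a median of 0.37. There 2.43% of all genes rose.

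Of 38 genes of the extracellular matrix and adhesion, 3 rose and 4 fell (18.4%, where 3.68% of all genes were called), and the list median was -0.03. *ITGB3*, the integrin beta 3 chain, was at 137, 76.1 and 83.3 TPM in Control KO and at 46.8, 46.7 and 46.3 TPM in *TRA2A* KO (log2 fold change -1.02, standard error 0.174, limma adjusted p = 0.0112). *THBS2*, thrombospondin 2, was at 496, 278 and 300 TPM and at 206, 166 and 133 TPM (-1.04, limma adjusted p = 0.026). *TIMP1*, an inhibitor of metalloproteinases, and *SPARC*, a matricellular protein, fell to 62.4% and 57.0% of control. Among the 3 that rose were, named after their values were seen, *CTGF* (78.6, 124 and 128 TPM to 171, 185 and 158 TPM) and *CYR61* (55.1, 132 and 132 TPM to 212, 244 and 213 TPM), which encode secreted matricellular proteins. In these 6 named genes the groups did not overlap and Luc Control KO replicate 1 was the control farthest from the knockout. Without that library only *ITGB3* passed.

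Of 14 inflammatory cytokines and chemokines tested, 2 rose and 0 fell (14.3%, where 1.86% of all genes rose), and 1 rose without Luc Control KO replicate 1. *IL6* was at 1.72, 5.45 and 5.97 TPM in Control KO and at 12.4, 12.7 and 13 TPM in *TRA2A* KO (log2 fold change 1.71, standard error 0.359, limma adjusted p = 0.026). The knockout libraries were nearly equal and all above the controls, and without Luc Control KO replicate 1 the log2 fold change of *IL6* was 1.15 (limma adjusted p = 0.0313). *TNFAIP3*, a negative regulator of NF-kB signaling, rose by 0.65 (limma adjusted p = 0.0378, and 0.131 without that library). Of 20 AP-1 and immediate early genes, *FOSL2* rose (0.78) and *NR4A2* and *NR4A1* fell (-1.04 and -0.67). These made up 15% of the list, where 3.68% of all genes were called. Without that library *NR4A2* passed, and the limma adjusted p was 0.0529 for *FOSL2* and 0.13 for *NR4A1*. Of 14 ERK feedback genes (14.3% called, beside the same 3.68%), *DUSP5* rose (0.45, limma adjusted p = 0.0365) and the ETS factor *ETV4* fell (-0.51, limma adjusted p = 0.0104). Without that library *ETV4* passed (0.0318 as the limma adjusted p) and *DUSP5* did not (0.129).

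Of 11 glioma and mesenchymal markers tested, 1 passed (9.09%, where 3.68% of all genes were called). *SOX2*, a transcription factor of neural and glioma stem cells, was at 90.8, 77.4 and 77.6 TPM in Control KO and at 54.6, 41.7 and 37.5 TPM in *TRA2A* KO (log2 fold change -0.87, standard error 0.137, limma adjusted p = 0.00922). It still passed without Luc Control KO replicate 1 (limma adjusted p = 0.0321). *CD44*, a hyaluronan receptor, had a log2 fold change of 0.40 that did not pass (limma adjusted p = 0.0643). The summed level of the list was 4536 to 4660 TPM in controls and 4659 to 4746 TPM in the knockout. *VIM* alone held 2594 to 3341 TPM of it, so the sum says little of the other markers. *FABP7* was at 191, 60.5 and 53.8 TPM in controls and at 56.5, 25.2 and 22.2 TPM in the knockout. *EGFR* was at 8.36, 16.5 and 18.3 TPM and at 20.4, 23.9 and 28.0 TPM. Neither of these genes passed. Of 5 lung epithelial markers tested the keratin *KRT7* rose, from 22.5, 36.5 and 34.2 TPM to 55.1, 52.3 and 50.8 TPM (0.81, limma adjusted p = 0.018). The defining lung marker *NKX2-1* was at or under 0.197 TPM in the 6 libraries. Of 2 blood cell markers tested 0 passed in limma, with 0 at an unadjusted p under 0.05, and 0 endothelial markers were high enough to be tested.

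Knockout of *TRA2A* and knockout of *TRA2B* gave different profiles in these cells. Set directly against Luc *TRA2B* KO, Luc *TRA2A* KO had 1371 DEGs (7.41% of genes), 570 higher (3.08%) and 801 lower (4.33%). The smallest p values were those of *TRA2A*, *ATF3*, *ZNF699*, *CITED4* and *DLC1*. *TRA2A* was at 74.2, 67.1 and 65.0 TPM in its own knockout and at 171, 167 and 170 TPM in *TRA2B* KO (log2 difference -1.24, standard error 0.0685, limma adjusted p = 2.84e-06). *ATF3* was at 22.9, 21.1 and 22.8 TPM in *TRA2B* KO, below the controls, and was 1.54 higher on the log2 scale in *TRA2A* KO (limma adjusted p = 4.31e-05). *ZNF699*, at 2.08, 2.77 and 2.37 TPM in *TRA2B* KO, was 2.27 higher in *TRA2A* KO (limma adjusted p = 6.08e-05).

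This contrast shares its *TRA2A* KO libraries with the comparison by which the 15 rising and 15 falling genes were picked, so their direction in it is no separate evidence. *GABRE*, a subunit of the GABA-A receptor, was at 12, 12.7 and 12.7 TPM in *TRA2B* KO, between the Luc controls (7.35 to 8.75 TPM) and *TRA2A* KO (13.8 to 14.9 TPM). Of the lists, 33 of 43 S phase genes were higher in *TRA2A* KO than in *TRA2B* KO, where 18% of all genes were, and 24 of 31 interferon-stimulated genes were lower, where 16.1% of all genes were. Of the 13 snoRNA host genes 9 were higher. *ZFAS1*, one of them, was at 227, 256 and 254 TPM in *TRA2A* KO and at 144, 144 and 136 TPM in *TRA2B* KO. Luc Control KO has no part in this contrast other than through the shared estimate of the spread.

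The TRA2B-OE cells gave a second measurement of the knockout that shares no library with the first. Both come from 1 fit with a shared estimate of the spread of each gene, so passing in both is not fully separate evidence. In them *TRA2B* was at 703, 900 and 893 TPM in Control KO and at 907, 1112 and 1141 TPM in *TRA2A* KO. *TRA2A* was at 84.3, 74.8 and 81.5 TPM and at 75.6, 68.8 and 65.4 TPM, so that the groups overlapped and the log2 fold change of -0.22 did not pass (limma adjusted p = 0.0793). The Control KO of these cells thus held less *TRA2A* than that of Luc cells, at 105 to 111 TPM. There were 203 DEGs (1.1%), 73 up (0.395%) and 130 down (0.703%), and 1122 genes (6.07%) had an adjusted p under 0.05, 449 higher (2.43%) and 673 lower (3.64%).

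The genes called in Luc cells moved alike in TRA2B-OE cells. Of the 127 DEGs, 119 (93.7%) had the same sign, where 69.9% of all genes had, and 69 passed in the same direction and 1, *RP11-24N18.1*, in the opposite one. Of the 681 genes, 657 (96.5%) had the same sign and 366 passed. The deviations of the replicates 1 of both control groups were correlated, as given above, so both were also left out. The DEGs of Luc cells were then the 24 called without Luc Control KO replicate 1, 20 of them among the 127. The same sign was found for 11 of 11 that rose and 11 of 13 that fell, and 4 and 8 passed. The share of all genes with the same sign was not computed for this setting. *CITED4* was at 25.4, 26.5 and 24.1 TPM in TRA2B-OE Control KO and at 14.3, 13.8 and 14.3 TPM in TRA2B-OE *TRA2A* KO (log2 fold change -0.86, limma adjusted p = 0.00205). *FGF2* was at 17.4, 17.1 and 16.4 TPM and at 27.4, 24.1 and 23.2 TPM (0.53, limma adjusted p = 0.00161). *IL6* was at 6.03, 8.58 and 9.38 TPM and at 26.0, 24.3 and 29.0 TPM (1.71, limma adjusted p = 0.0189). In these genes the groups did not overlap in either background. Of the 15 rising genes 12 and of the 15 falling genes 14 passed in the same direction, the exceptions being *FAM98A*, *TPM1*, *ALDH1A3* and *TRAF1*.

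A test of the difference between the backgrounds (the response to *TRA2A* KO in Luc minus that in TRA2B-OE) called 0 of 18490 genes in limma at an adjusted p under 0.05, while 1051 (5.68%) had an unadjusted p under 0.05. A missed threshold does not show that the responses were equal. *FAM98A* had one of the smallest p values, at 43.2, 42.5 and 41.5 TPM and then 60.6, 64.3 and 56.9 TPM in Luc cells, and at 53.7, 61.0 and 51.0 TPM and then 57.9, 55.2 and 56.2 TPM in TRA2B-OE cells. Its difference of responses was 0.52 (standard error 0.0933, limma adjusted p = 0.446). For *TRA2A* the difference was -0.43 (standard error 0.0969, limma adjusted p = 0.523). Without TRA2B-OE Control KO replicate 1, 11 genes were called, and with both replicates 1 of the controls left out, 7.

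**Figure D5:**
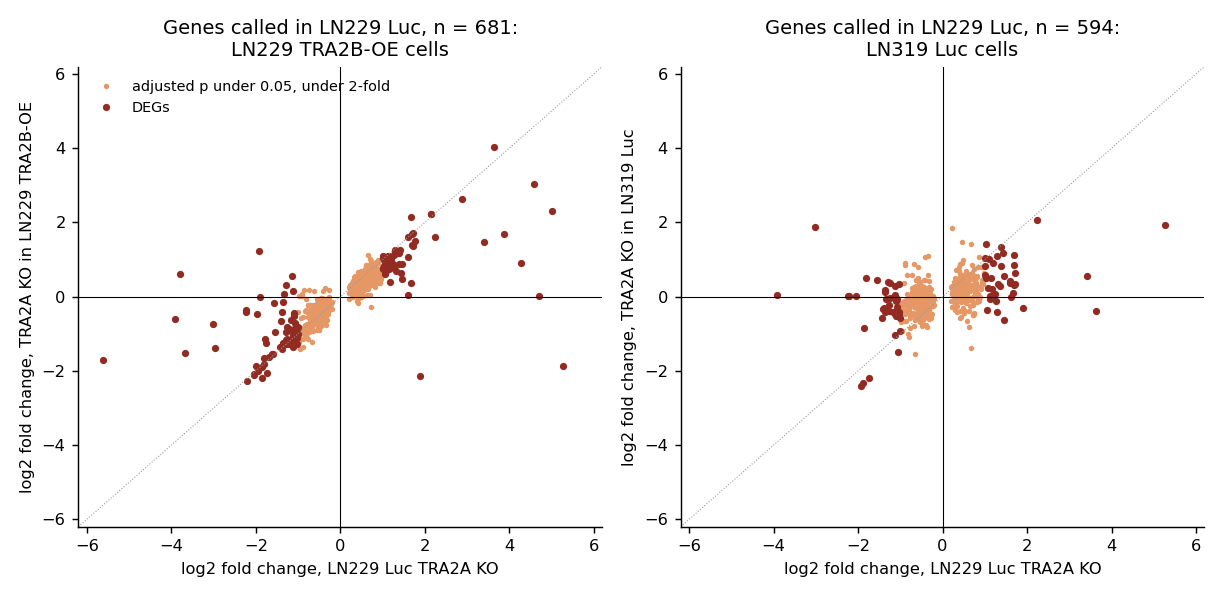
Genes with an adjusted p under 0.05 in LN229 Luc *TRA2A* KO: their log2 fold change there (horizontal) against that of *TRA2A* KO in LN229 TRA2B-OE (left, 681 genes) and in LN319 Luc (right, 594 genes tested there). Dark points are DEGs of LN229 Luc and the dotted line marks equal change; 657 of the 681 genes on the left and 452 of the 594 on the right have the same sign.

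LN319 cells were quantified in their own table, so their values stand beside those of LN229 without a test. *TRA2A* fell from 101, 107 and 113 TPM in LN319 Luc Control KO to 33.9, 34.3 and 38.3 TPM in *TRA2A* KO (log2 fold change -1.55, limma adjusted p = 1.61e-06), beside -0.65 in LN229. There were 359 DEGs (1.86% of 19303 genes), 173 up (0.896%) and 186 down (0.964%). Of the DEGs of LN229, 81 were tested in LN319, and 59 of them (72.8%) had the same sign, where 60.1% of all genes had. Of these, 29 passed in the same direction, where 14.3% of all genes passed in either, and *LIPG*, *RAB27B* and *NR4A2*, named here to complete the count, passed in the opposite one. *TGFB2* rose in both lines, in LN319 from 13.5, 14 and 16.4 TPM to 24.7, 25.1 and 26.4 TPM (log2 fold change 0.84, limma adjusted p = 2.88e-04). *CPA4* was at 15.1, 20.2 and 19.5 TPM and at 74.0, 68.6 and 80.4 TPM in LN319 (2.07, limma adjusted p = 2.48e-04), a change near the 2.24 of LN229. *GADD45A* rose by 0.60 (limma adjusted p = 2.5e-04) beside 0.57 in LN229, and *HMOX1* by 0.98 (limma adjusted p = 2.13e-05) beside 0.49. *IGFBP2* fell from 380, 375 and 326 TPM to 182, 205 and 197 TPM (-0.84, limma adjusted p = 0.00429) beside -0.78.

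Other genes were hardly present in LN319. *SERPINA3*, *GRM8*, *DLC1* and *ITGB3*, at 15.7 TPM or more in the LN229 controls, were under 1 TPM in every Luc library of LN319 *TRA2A* KO and Control KO. *IL6* had a log2 fold change of 0.35 in LN319 (limma adjusted p = 0.487), and *BCL2L1* of -0.04 (limma adjusted p = 0.836). Of the lists, 16 of 31 interferon-stimulated genes and 0 of 31 fell in LN319 and LN229, where 7.25% and 1.83% of all genes fell. Of 24 ATF4 and ER stress genes, 16 rose in LN319, where 7% of all genes rose, and 1 rose in LN229. Of the NRF2 targets 8 of 19 rose in LN319 and 5 of 20 in LN229.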

How the data were processed

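Directional libraries of poly(A) RNA were read in pairs of 150 bp. According to the study's methods the authors quantified transcripts with kallisto 0.48.0 on Gencode 34 (hg38); the submitters' processing notes also name STAR 2.7.3. The deposited values are TPM per gene symbol, neither scaled between libraries nor logged, and depth is unknown from them. The authors' voom fit needs counts and was not repeated.

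Values of genes at 1 TPM or more in 4 or more of 15 LN229 libraries were divided by a scaling factor per library (a mean of log ratios after trims of 30% and 5%, without weights) and taken as log2(TPM + 0.1), which understates changes of low genes. One limma fit (3.58.1, R 4.3.3, mean-variance trend, two-sided, 10 residual degrees of freedom) held all 5 groups, with Benjamini-Hochberg adjustment over all genes tested. DEGs had an adjusted p under 0.05 and a change over 2-fold. LN319 was fitted alone. All columns were matched to samples, and 0 libraries were identical. Lung cancer tables were not analysed here. Biotypes and positions came from Gencode 44, in which 14493 of the tested names were found; 23 tested names in date form were never named. Guides were searched with Python 3.11.15, and figures drawn with matplotlib 3.10.9. The steps were tested on simulated data, in which the noise was independent, had the same spread in every library and held no outlying library. That test does not bear on calls that rested on single libraries.

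The comparison and the 24 gene lists were chosen with earlier results of these data known. Candidates for naming were both paralogs, the RT-PCR targets, the 15 protein-coding genes of smallest p in each direction with at least 5 TPM in either group, the 10 DEGs of largest rise and of largest fall, up to 4 genes of smallest p per list and up to 5 per further contrast. Not all of them are described; microRNAs among them are given no value, and 1 gene and 1 control guide are not reported here. Alternatives were the TPM as deposited, quantile normalization, other pseudocounts and filters, only the groups compared, the replicate number as a block, library quality weights, a 1.5-fold minimum and each library left out; leaving out both replicates 1 of the controls was added after seeing the data.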

Additional observations from a re-analysis of the deposited data

Results flagged for a closer look

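Among the genes picked by the rule for named genes, 5 that passed in LN229 Luc *TRA2A* KO had opposite directions in the lines: every library moved one way there and every library the other way in LN319; the difference between the lines was not tested. *CITED4* had a log2 fold change of -1.24 in LN229 and 0.36 in LN319, where it was at 11.8, 11.5 and 11.9 TPM in Control KO and at 13.4, 14.4 and 16.5 TPM in *TRA2A* KO. *LRAT*, which esterifies retinol, had -0.57 and 0.80, at 36.8, 34.7 and 34.7 TPM and then 24.3, 22.8 and 23.5 TPM in LN229 and at 4.32, 4.82 and 5.10 TPM and then 7.75, 7.41 and 9.15 TPM in LN319. Both changes of *LRAT* passed (limma adjusted p = 0.00728 and 5.62e-04). Of the 15 falling genes named above, only *LRAT* and *NR4A2* passed in the opposite direction in LN319, and the change of *CITED4* there did not pass. *NR4A2* had -1.04 and 0.35, its relative *NR4A1* -0.67 and 0.27, and *PDIA4* -0.59 and 0.51.

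In 3 of the genes picked by that rule the libraries moved in opposite ways in the Luc and TRA2B-OE cells of LN229. These 3 were picked for a small p in the test of that very difference, so their opposite movement is no separate evidence. Neither *C1DP1* nor *PLLP* passed in Luc cells. The limma test of that difference passed for none. *RP11-24N18.1* had 1.90 in Luc and -2.15 in TRA2B-OE (adjusted p = 0.374), at levels under 3 TPM. *C1DP1*, a pseudogene, had 0.64 and -0.85, and *PLLP*, a gene of myelin plasmolipin, -0.49 and 1.03 (both adjusted p = 0.446).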

How the results depend on the processing

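All 127 DEGs kept their sign under every alternative that gave a value, while the counts did not hold. With no overlap between the groups, leaving out 1 library could not have reversed a sign. The DEGs numbered 84 with a pseudocount of 1, 51 with no filter, 1 with only the groups compared, 311 at a 1.5-fold minimum and 5 to 188 with 1 library left out. Genes at an adjusted p under 0.05 numbered 237 with no filter (153 higher, 84 lower), 1 with only the groups compared and 33 to 748 with 1 library left out. For *TRA2A*, -0.65 had an adjusted p of 0.144 with only the groups compared. Same-numbered deviations in *TRA2A* KO and Control KO correlated at 0.160, 0.0221 and 0.0408, and different-numbered ones at -0.0977 to 0.0603. Whether the replicate numbers pair the libraries is not settled by these values. With the replicate block there were 266 DEGs and 1585 genes at an adjusted p under 0.05 in Luc cells, and 311 DEGs in TRA2B-OE. Against *TRA2B* KO, 896 DEGs were called with a pseudocount of 1 and 792 at 5 TPM. The difference between Luc and TRA2B-OE had 1 gene with a pseudocount of 0.01, 2 with no filter, 23 with library quality weights, 0 to 11 with 1 library left out and 7 with both control replicates 1 out. In TRA2B-OE there were 122 DEGs with no filter, 61 with only the groups compared, 450 with quality weights, 512 at 1.5-fold and 68 to 212 with 1 library left out. LN319 had 185 with a pseudocount of 1, 161 at 5 TPM and 996 at 1.5-fold. List medians that moved beyond the spread of the libraries were 0.0499 for ATF4 and ER stress and 0.10 for HIF targets with no filter, -0.11 for SR protein kinases, -0.22 for AP-1 and immediate early genes and -0.41 for glioma markers at 5 TPM, and 0.19 for cytokines and -0.17 for glioma markers with quality weights. With 1 library left out they ranged from -0.17 to -0.00874 (AP-1), 0.0223 to 0.10 (HIF), 0.18 to 0.29 (cytokines), -0.00090 to 0.10 (nonsense-mediated decay), -0.032 to 0.10 (SR proteins), -0.10 to 0.0159 (sterol synthesis), -0.18 to 0.00499 (glioma markers) and 0.0272 to 0.44 (lung markers).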
